A study of Mus musculus with 12 samples.

Results

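The comparison described here is the response of mouse splenic dendritic cells (DCs) to lipopolysaccharide (LPS) over 3 h of culture. It uses 6 of the 12 RNA-seq libraries of the study, chosen by their labels: 3 of DCs cultured alone (the DC only group) and 3 of DCs cultured with LPS, whose dose the labels do not give. All DCs came from C57BL/6 mice, of an age not stated, that carried B16 melanoma tumours engineered to secrete Flt3 ligand, which drives DC numbers up. Spleens were taken when the tumour had grown, lymphocytes and macrophages were removed with beads, and after culture the cells were sorted on CD11b and CD11c. The remaining 6 libraries came from the same kind of DCs cultured with syngeneic (SynTem) or with BALB/c-derived alloantigen-specific (AlloTem) memory T cells. A tumour-bearing, Flt3 ligand-expanded spleen was thus the source of both groups, and a bead step, a culture and a sort preceded every library.

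LPS, a component of the outer membrane of Gram-negative bacteria, is bound by CD14 and handed to the receptor complex of TLR4 and its partner MD-2 (encoded by Ly96). The adaptor MyD88 leads from there to NF-kB and to MAP kinases, which switch on inflammatory cytokines and, with them, their own inhibitors. The adaptor TRIF leads to the kinases TBK1 and IKK-epsilon (Ikbke), to IRF3 and to type I interferon. In DCs this programme is known for maturation, in which the cells raise costimulatory molecules and the lymph node homing receptor CCR7 while uptake genes decline.

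The promoter windows of 4 genes are shown because they carry the letters by which NF-kB and interferon-activated factors are commonly recognised, and because their genes mark the 2 arms followed below. Sequences are from RefSeq (GRCm38.p6), 300 bases each on the gene's own strand, of which the first 250 precede the annotated start. Capitals mark matches, on either strand, to the kB letters (GGGA and TTCC with 2 bases of any kind between them) in Cxcl2, Il6 and Nfkbia, and to the interferon-response letters (GAAA and GAAA with 2 bases of any kind between) in Ifit1. The windows are chr5:90903649-90903948 (plus strand) for the chemokine Cxcl2, chr5:30012864-30013163 (plus) for the cytokine Il6, chr12:55492598-55492897 (minus) for the NF-kB inhibitor Nfkbia and chr19:34640639-34640938 (plus) for the interferon-induced Ifit1.
Cxcl2: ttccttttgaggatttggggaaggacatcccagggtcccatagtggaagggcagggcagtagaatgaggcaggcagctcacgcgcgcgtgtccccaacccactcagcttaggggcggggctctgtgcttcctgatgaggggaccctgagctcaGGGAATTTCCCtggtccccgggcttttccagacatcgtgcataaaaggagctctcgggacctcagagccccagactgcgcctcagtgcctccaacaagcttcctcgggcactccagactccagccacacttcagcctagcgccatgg
Il6: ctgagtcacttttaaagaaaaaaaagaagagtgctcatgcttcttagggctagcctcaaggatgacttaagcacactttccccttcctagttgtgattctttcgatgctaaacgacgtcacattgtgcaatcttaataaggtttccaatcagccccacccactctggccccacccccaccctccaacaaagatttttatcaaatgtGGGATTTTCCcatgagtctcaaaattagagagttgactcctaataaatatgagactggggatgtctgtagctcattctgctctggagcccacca
Nfkbia: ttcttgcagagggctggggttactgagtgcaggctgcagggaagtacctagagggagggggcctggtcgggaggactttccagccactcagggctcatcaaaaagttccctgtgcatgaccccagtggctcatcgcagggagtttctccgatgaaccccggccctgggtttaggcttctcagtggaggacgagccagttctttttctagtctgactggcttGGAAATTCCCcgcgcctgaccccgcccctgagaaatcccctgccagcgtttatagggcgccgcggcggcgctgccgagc
Ifit1: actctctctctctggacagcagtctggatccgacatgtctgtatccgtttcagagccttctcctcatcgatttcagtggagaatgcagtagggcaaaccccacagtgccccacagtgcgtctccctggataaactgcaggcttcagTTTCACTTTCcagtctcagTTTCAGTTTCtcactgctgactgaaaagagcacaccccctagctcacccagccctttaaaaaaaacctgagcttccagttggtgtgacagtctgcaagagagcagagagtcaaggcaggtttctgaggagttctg
In Cxcl2 2 overlapping matches began 97 and 96 bases before the start, in Il6 the match began 44 bases before it and in Nfkbia 29 bases before it. In Ifit1 2 matches that do not overlap began 104 and 85 bases before the start. The kB letters occurred in windows of 437 of 26742 genes (1.63%) and the interferon-response letters in those of 1070 (4%). Among tested members of the lists described below, the kB letters occurred in 3 of 10 chemokine genes with a window (30%) and in 2 of 13 cytokine genes (15.4%), against 1.79% of all tested genes. The same letters were in 2 of 13 NF-kB inhibitor genes (15.4%) and also in 2 of 20 type I interferon response genes (10%). They occurred in 0 of 21 immediate early, 0 of 14 maturation and 0 of 18 lipid mediator and antimicrobial genes with a window. The interferon-response letters occurred in 12 of 20 type I interferon response genes (60%), against 4.04% of all tested genes. A match describes the letters and not a bound site.

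Total counts of the 6 libraries lay between 16323673 and 19461531, and 14413 of 57009 gene identifiers had enough counts over the 12 libraries to be tested. Levels are given as CPM, counts relative to the TMM-adjusted library total. In the deposited sample table the batch (1, 2 or 3) of every library is the same as its replicate, and what a batch was is not stated. Nothing in the labels says whether replicates came from separate animals, so the p-values measure only how far these libraries spread, possibly for technical reasons. Batch 3 stood apart on the first principal component of the 6 libraries (41% of the variance), and LPS 1 on the second (20.7%). DC only 1 and 2 were closer to each other (chi-square per degree of freedom 5.92) than any other pair within a group (29.4 to 47.0), though still beyond sampling noise. Y-linked transcripts summed to 209 and 219.6 CPM in DC only 3 and LPS 3 and to 0 in the other 4 libraries, and Xist, an RNA of female cells, was 138 to 146 CPM in those of batch 3 and 610.0 to 1014 CPM in the other 4. DC markers were present throughout: the 7 genes of the list, among them Flt3, Zbtb46 and Itgax, summed to 3559, 3563 and 3655 CPM in DC only and 3578, 3858 and 3375 CPM with LPS. Of 6 melanoma markers, none was tested, and Tyrp1, Mlana, Tyr and Sox10 were at 0 in all 6 libraries.

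Markers of other cells were not even between libraries, and LPS 1 had the highest sum for 4 of the 5 lists given here, all but macrophages and monocytes. Neutrophil markers (11 of 11 tested) summed to 34.1, 39 and 114 CPM in DC only libraries 1 to 3 and 284, 91.7 and 123 CPM in LPS 1 to 3. NK and cytotoxic markers (9 of 9) summed to 451, 458 and 135 CPM and 979, 279 and 116 CPM in the same order, and T cell markers (19 of 19) to 87.8, 104 and 65 CPM and 186, 109 and 71.5 CPM. Erythroid and platelet markers (8 of 10 tested) summed to 10.6, 9.94 and 45.7 CPM and 83.7, 45.8 and 55.2 CPM, and macrophage and monocyte markers (9 of 11) to 949, 983 and 319.9 CPM and 971, 603 and 373 CPM. Some defining genes were low. The T cell receptor subunit Cd3e did not exceed 1.26 CPM and the neutrophil antigen Ly6g 1.07 CPM, both in LPS 1, and the macrophage gene Vsig4 was at 0 in all 6. Other members of the lists were not low: the neutrophil genes S100a9 and Ngp were at 70.0 and 68.0 CPM in LPS 1. In bulk RNA, fewer cells of a type and less RNA per cell cannot be told apart.

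**Figure D1:**
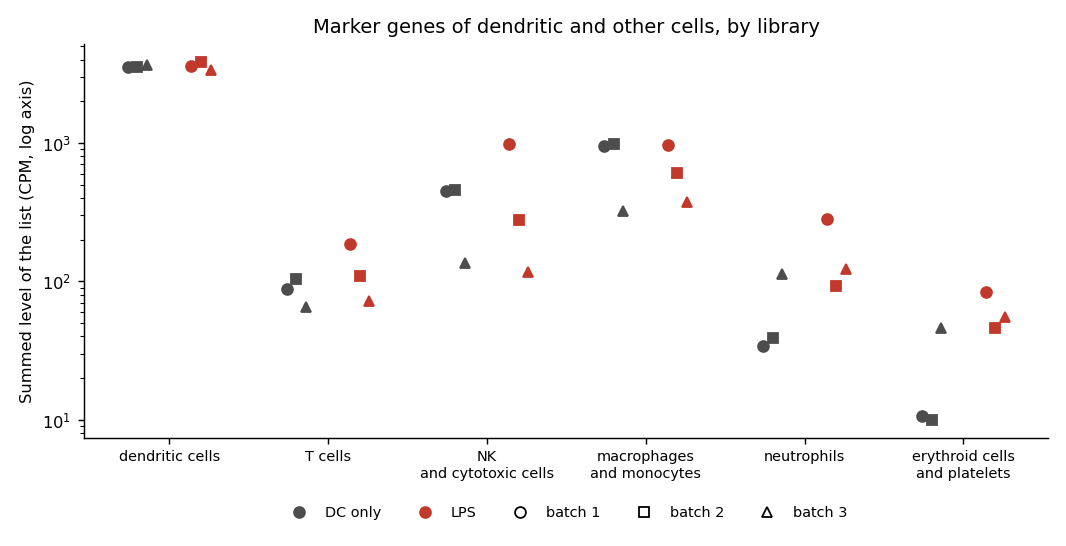
Summed level of each marker list in CPM (log axis) in the 3 DC only (grey) and 3 LPS (red) libraries, with the batch as the symbol. DC markers lie between 3375 and 3858 CPM in all 6 libraries, while NK, neutrophil, T cell and erythroid markers are highest in LPS 1.

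With LPS, most listed genes for inflammatory cytokines, early transcription factors and costimulation were higher within each of the 3 batches. They were 12 of 17, 21 of 26 and 17 of 23, against 15.6% of all genes, and 7 of 15 for chemokines. The lists were chosen with earlier results of these data known, so these shares describe them and test nothing. No list member passed in the fit without batch, and a few did with it over the 6 libraries. Whether any gene passed depended on the batch term, the libraries included and the tool together. By edgeR, 0 genes passed over the 6 libraries without batch. In the fit over 12 libraries without batch, 0 of 14413 genes passed at an adjusted p under 0.05 (0% called; edgeR quasi-likelihood test with Benjamini-Hochberg adjustment, smallest adjusted p = 0.787). At an unadjusted p under 0.05 there were 531 genes (3.68%), 324 higher (2.25%) and 207 lower (1.44%). DESeq2 called 10 of 14368 (0.0696%) and limma voom 0. With batch as a block over the 12 libraries 0 passed as well (smallest edgeR adjusted p = 0.331, 801 genes or 5.56% at an unadjusted p under 0.05). With batch as a block and only the 6 libraries compared, 11 of 13319 genes passed (0.0826%), of which 10 rose (0.0751%) and 1 fell. At an unadjusted p under 0.05 that fit had 676 genes higher (5.08%) and 490 lower (3.68%). Those 11 are named because they passed, after their values were seen. On simulated data this fit made more false calls than its threshold implies, a limit that holds for each gene said to have risen or fallen below.

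The 10 genes that rose were Cxcl2, Il6, Ptgs2, Ccl4, Il1b, Nr4a1, Serpinb9, Gadd45b, Cd83 and Pvr, and the gene that fell was Tifab. limma voom with the same block called 12 genes and DESeq2 186, and each included all 11. The number of calls differed with the batches included: with batches 1 and 2 only, 0 genes passed by edgeR (1269 at an unadjusted p under 0.05), with batches 1 and 3 only 5 passed and with batches 2 and 3 only 64. Without DC only 2, 5 genes passed, among them Cxcl2, Il1b and Ptgs2 of the 11. Without LPS 1 27 genes passed, among them 8 of the 11: Cxcl2, Ptgs2, Il1b, Nr4a1, Serpinb9, Gadd45b, Cd83 and Pvr. All 11 kept their direction in each of these fits. With the block, a library left without its batch partner adds nothing to the contrast. Leaving out LPS 1 thus repeats batches 2 and 3, and leaving out DC only 2 repeats batches 1 and 3. They are not separate checks. The fits reuse the libraries on which the 11 were picked, so this is not independent support.

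**Figure D2:**
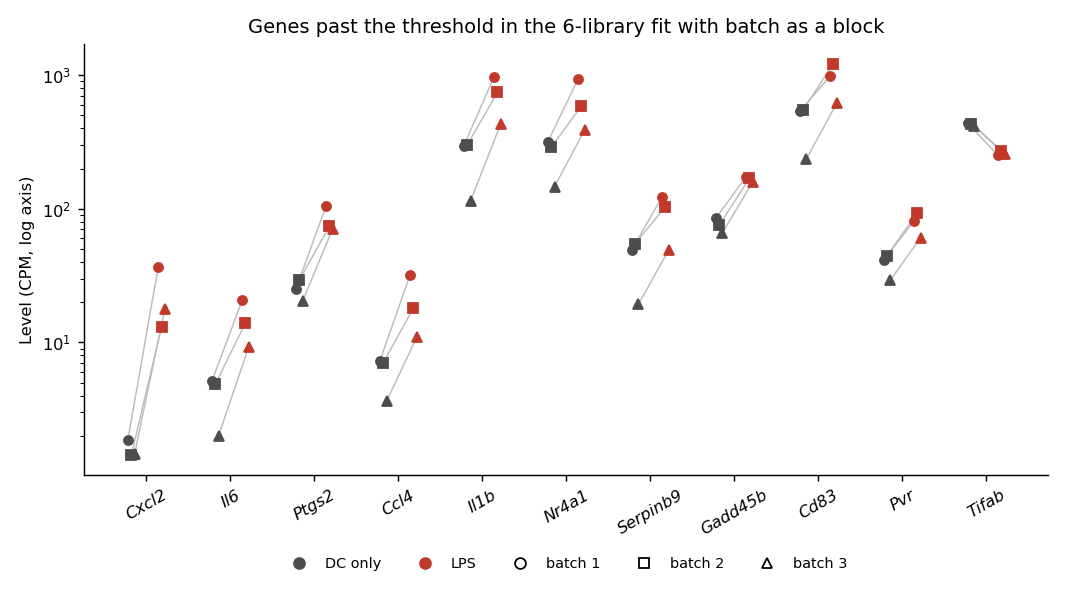
CPM (log axis) of the 11 genes past the threshold in the 6-library fit with the block, in DC only (grey) and LPS (red), with lines joining the libraries of a batch. In each of the 3 batches the LPS library is above its DC only library for 10 genes and below it for Tifab.

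Cxcl2, a chemokine that attracts neutrophils (chromosome 5, 90903871 to 90905938), had the largest change of the 11. It was at 1.88, 1.43 and 1.47 CPM in DC only libraries 1 to 3 and at 36.4, 13.1 and 17.8 CPM in LPS libraries 1 to 3. The groups did not overlap, and the highest level was in LPS 1. The means were 22.4 ± 12.3 against 1.59 ± 0.249 CPM (SD, n = 3 each), a 14.1-fold difference. With the block the log2 change was 3.70 ± 0.24 (SE; edgeR adjusted p = 0.0116), and it was 3.81 ± 0.78 in the fit without it. Its promoter holds the overlapping kB letters shown above.

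Il6, the acute-phase cytokine (chromosome 5, 30013114 to 30019981), was at 5.13, 4.85 and 2.01 CPM in DC only and 20.6, 14 and 9.30 CPM with LPS. Every LPS library was above every DC only library, and the log2 change with the block was 1.90 ± 0.20 (edgeR adjusted p = 0.0354). Il1b, the inflammasome-processed cytokine (chromosome 2, 129364570 to 129371139), was at 295, 299.96 and 115 CPM in DC only and 971, 743 and 432 CPM with LPS. DC only 3 and LPS 3 were each the lowest of their group, and within batches the log2 ratios were 1.72, 1.31 and 1.91. Its log2 change was 1.65 ± 0.12 with the block (edgeR adjusted p = 0.0138) and 1.60 ± 0.66 without it, a similar size with a larger error.

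Ptgs2, the inducible cyclooxygenase that makes prostaglandin precursors (chromosome 1, 150100031 to 150108227), was at 25.1, 29.1 and 20.4 CPM in DC only and 105, 74.2 and 71.1 CPM with LPS. The groups did not overlap (log2 1.74 ± 0.14 with the block, edgeR adjusted p = 0.0148). Ccl4, an inflammatory chemokine (chromosome 11, 83662584 to 83664683), was at 7.26, 7.03 and 3.62 CPM in DC only and 31.9, 18.1 and 11 CPM with LPS. It was near the threshold (log2 1.71 ± 0.19, edgeR adjusted p = 0.0421) and past it neither without LPS 1 (edgeR adjusted p = 0.0589) nor without DC only 2 (edgeR adjusted p = 0.165).

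Nr4a1, an orphan nuclear receptor of the immediate early class (chromosome 15, 101254269 to 101274795), was at 316, 288 and 146 CPM in DC only and 933, 587 and 389.6 CPM with LPS. Its groups did not overlap, and the log2 change with the block was 1.33 ± 0.11 (edgeR adjusted p = 0.0147). Gadd45b, a stress-induced gene of the growth arrest family (chromosome 10, 80930073 to 80932204), was at 85, 75.1 and 66.1 CPM and 173, 169 and 159 CPM. The LPS libraries lay close together, and the within-batch log2 ratios were 1.02, 1.16 and 1.26 (log2 1.15 ± 0.08, edgeR adjusted p = 0.013). Serpinb9, an inhibitor of granzyme B (chromosome 13, 33003250 to 33017957), was at 49.3, 54.7 and 19.3 CPM and 122, 104 and 49.1 CPM. Its groups overlapped, since LPS 3 lay below DC only 1 and 2, yet it was higher within each batch (log2 1.19 ± 0.10, edgeR adjusted p = 0.0148).

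Cd83, a surface marker of mature DCs (chromosome 13, 43784775 to 43803132), was at 536, 547 and 236 CPM in DC only and 979.8, 1219.8 and 615 CPM with LPS (log2 1.14 ± 0.11 with the block, edgeR adjusted p = 0.0259). Pvr, the CD155 ligand of DNAM-1 and TIGIT (chromosome 7, 19903578 to 19921160), was at 41.2, 44.6 and 29.2 CPM and 80.9, 93.4 and 60.9 CPM. Its within-batch log2 ratios, 0.97, 1.06 and 1.05, were nearly the same in each batch (log2 1.03 ± 0.08, edgeR adjusted p = 0.0138). Tifab, which encodes a TIFA-like protein that dampens TRAF6 signalling (chromosome 13, 56173704 to 56178885), was the gene that fell. It was at 435, 433 and 419 CPM in DC only and 252, 272 and 257 CPM with LPS, and its log2 change was -0.72 ± 0.08 with the block (edgeR adjusted p = 0.0421). Both groups were tight, and DESeq2 without the block called it too (DESeq2 adjusted p = 0.0126).

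The receptor and its adaptors had no common direction as a list. Of 29 tested members 16 had a fitted change above 0 (50% of all genes), the median log2 change was 0.02 (0 over all tested genes), and none passed. In 5 of 29 every LPS library was above every DC only library (5.36% of all genes), and in 2 every one was below (4.51% of all genes). Tlr4 itself was at 5.70, 8.45 and 8.52 CPM in DC only and 6.91, 6.89 and 5.21 CPM with LPS, and the groups overlapped (log2 -0.26 ± 0.26). Ly96 was at 0.939, 1.43 and 1.37 and 2.39, 2.26 and 1.62 CPM, apart but by a small step (log2 0.74 ± 0.40).

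Cd14, the LPS co-receptor, stood out from this list. It was at 18.1, 18.7 and 18.3 CPM in DC only and 79.1, 29 and 38.7 CPM with LPS, so that DC only was nearly constant and LPS 1 had the highest level (log2 1.41 ± 0.61, 0.88 without LPS 1). Ikbke, the kinase of the TRIF arm, was at 16.1, 15.9 and 8.03 CPM and 29.4, 24.2 and 29.1 CPM (log2 1.05 ± 0.36). Neither passed with the block (edgeR adjusted p = 0.406 and 0.283).

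NF-kB subunits and the inhibitors that NF-kB induces were higher in number than in size. All 5 tested subunits and all 14 tested inhibitors had a fitted change above 0, with median log2 changes of 0.33 and 0.39, and none passed. With the block, 4 of 5 subunits and 7 of 14 inhibitors were higher at an unadjusted p under 0.05 (5.08% of all genes). Rel, the c-Rel subunit, was at 379.7, 414 and 323 CPM in DC only and 575, 654 and 458 CPM with LPS, without overlap (log2 0.60 ± 0.29).

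Nfkbiz, the inducible IkB-zeta needed for Il6 expression, was at 168, 169 and 115 CPM in DC only and 423, 279 and 331 CPM with LPS. That was a 2.29-fold difference of means without overlap (log2 1.19 ± 0.44). Nfkbid, which encodes the related IkB-NS, was at 94.1, 83.6 and 59.1 CPM and 159.7, 123 and 126 CPM (log2 0.79 ± 0.32). The 2 classic feedback inhibitors differed most in batch 3. Nfkbia (IkB-alpha) was at 1027, 969 and 476 CPM in DC only and 1410.5, 1085 and 1119 CPM with LPS, and Tnfaip3 (A20) at 688, 676 and 287 CPM and 1026, 827 and 788 CPM. The DC only 3 library had the lowest level of both, and the within-batch log2 ratios were 0.46, 0.16 and 1.23 for Nfkbia and 0.58, 0.29 and 1.46 for Tnfaip3.

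Immediate early transcription factors, which need no new protein to be induced, were broadly higher. Of 26 tested members 24 had a fitted change above 0 (median log2 0.52, 0.31 without LPS 1). Every LPS library was above every DC only library in 11 (5.36% of all genes). In 3 of 3 batches 21 were higher (15.6% of all genes). With the block 19 of 26 were higher at an unadjusted p under 0.05 (5.08% of all genes), and Nr4a1 and Gadd45b passed. Egr1, a zinc finger factor downstream of ERK, was at 36.1, 40.0 and 14.3 CPM in DC only and 131, 83.3 and 61.9 CPM with LPS (log2 1.62 ± 0.63). Fosl1, which encodes the AP-1 subunit Fra-1, rested on few reads: 15, 14 and 2 counts in DC only and 55, 49 and 22 with LPS (log2 2.06 ± 0.85).

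Nr4a2 and Nr4a3, relatives of Nr4a1, differed by batch. Nr4a2 was at 20.1, 17 and 23.9 CPM in DC only and 54.2, 69.6 and 34 CPM with LPS, without overlap, and DESeq2 called it (log2 1.37 ± 0.26 by edgeR, DESeq2 adjusted p = 0.00308). Nr4a3 was at 91.9, 92 and 74.9 CPM and 235, 271 and 72.5 CPM, higher in batches 1 and 2 and about level in batch 3 (log2 ratios 1.35, 1.56 and -0.05).

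Feedback on MAP kinases and on cytokine mRNA leaned the same way. Of 17 tested genes 14 had a fitted change above 0 (median log2 0.61), and none passed. In 8 the LPS libraries were all above DC only (5.36% of all genes). Dusp2, a phosphatase of ERK and p38, was at 208, 169.9 and 76.3 CPM in DC only and 424, 308 and 214 CPM with LPS (log2 1.06 ± 0.55; edgeR adjusted p = 0.0588 with the block). Dusp4 was at 4.76, 2.80 and 1.91 and 6.72, 7.24 and 7.17 CPM, and Dusp8 at 4.69, 6.11 and 1.62 and 9.05, 11.2 and 8.68 CPM. All 3 phosphatases had LPS above DC only in each batch.

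Among cytokines, 15 of 17 tested genes had a fitted change above 0 (median log2 0.84). Every LPS library was above every DC only library in 9 (5.36% of all genes). Il6 and Il1b passed with the block, and 9 of 15 were higher there at an unadjusted p under 0.05 (5.08% of all genes). Il12b, the p40 chain shared by IL-12 and IL-23, was at 4.19, 3.60 and 4.56 CPM in DC only and 29.7, 18.2 and 12 CPM with LPS. That 4.85-fold difference came without overlap (log2 2.27 ± 0.83; edgeR adjusted p = 0.0895 with the block). Il12a, the partner chain that makes IL-12, was at 1.31, 1.43 and 3.77 CPM and 0.754, 1.01 and 4.59 CPM, with no common direction.

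Tnf was at 105, 93.4 and 30.4 CPM in DC only and 276, 144 and 159 CPM with LPS, without overlap (log2 1.34 ± 0.64). Its within-batch log2 ratio was largest in batch 3, where DC only was lowest (1.38, 0.62 and 2.37). Il1a and Il10 started near 0. Il1a had 1, 4 and 2 counts in DC only and 31, 23 and 29 with LPS, and DESeq2 called it (log2 3.59 ± 0.69 by edgeR, DESeq2 adjusted p = 0.00942). Il10, the anti-inflammatory cytokine, had 2, 1 and 0 counts in DC only and 26, 8 and 7 with LPS (log2 3.71 ± 1.32, 2.79 without LPS 1).

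Chemokines had a median log2 change of 0.81, with 14 of 15 tested genes above 0, and without LPS 1 10 of 15. In 5 the LPS libraries were all above DC only (5.36% of all genes). Cxcl2 and Ccl4 passed with the block. Ccl3, the companion of Ccl4, was at 20.0, 20.1 and 14.9 CPM in DC only and 84.1, 36.8 and 34.3 CPM with LPS (log2 1.49 ± 0.61). Cxcl1, the relative of Cxcl2, was at 0 counts in each DC only library, with 11, 14 and 4 counts with LPS, so that no fold is given.

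Ccl5 and Cxcl10, chemokines that draw effector T cells, did not show this pattern. Ccl5 was at 79.8, 73.7 and 23.3 CPM in DC only and 462, 77.6 and 25.9 CPM with LPS: the high mean rested on LPS 1 (log2 1.68 ± 1.26, but -0.19 without LPS 1). Gzma, the granzyme A gene of NK cells, was highest in the same library, at 67.6, 67.5 and 1.47 CPM in DC only and 239, 4.99 and 2.18 CPM with LPS, and the part of NK cell RNA in the Ccl5 level was not tested. Cxcl10 was at 100.02, 105 and 7.59 CPM and 96.9, 114 and 50.0 CPM, higher mainly within batch 3 (log2 ratios -0.05, 0.11 and 2.64). Its log2 change of 0.29 ± 1.27 became -0.24 without DC only 3.

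**Figure D3:**
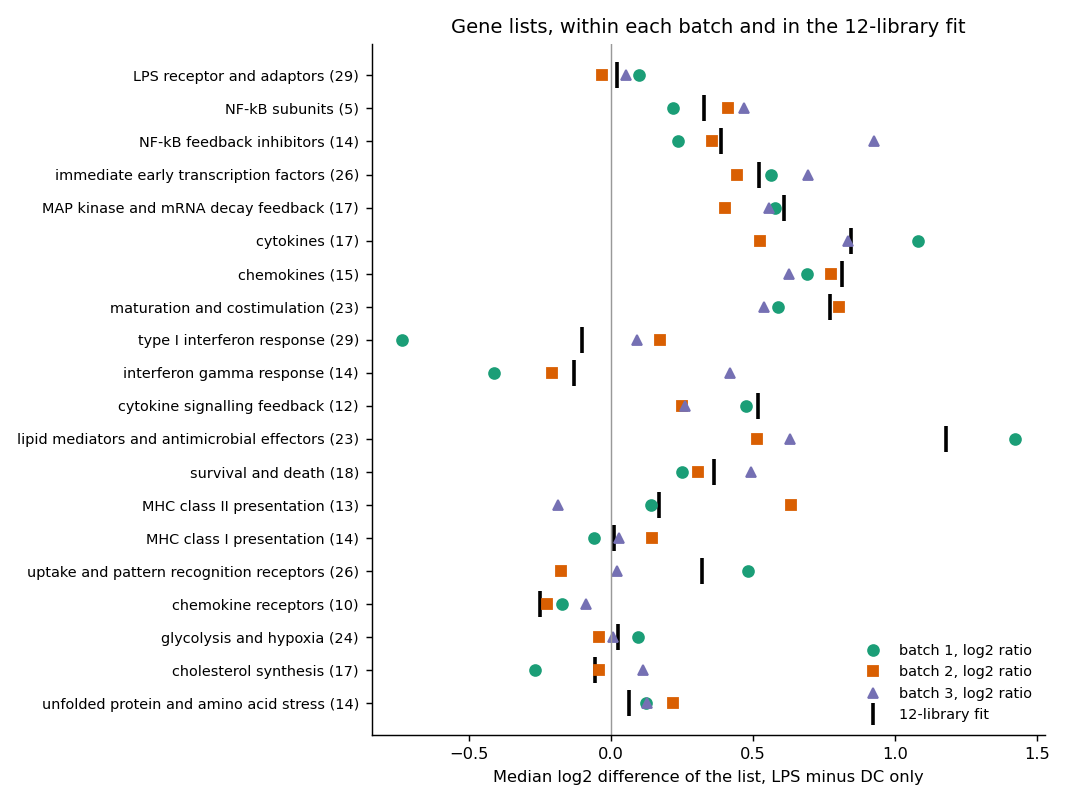
Median log2 difference, LPS minus DC only, of 20 gene lists (tested members in brackets): coloured symbols are within-batch ratios, black bars the 12-library fit. Cytokines, chemokines, immediate early factors and maturation genes lie above 0 in all 3 batches, and the type I interferon list lies at -0.73 in batch 1 and near 0 in the others.

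Maturation and costimulation genes had a median log2 change of 0.77, with 22 of 23 tested members above 0. In 12 every LPS library was above every DC only library (5.36% of all genes). In 3 of 3 batches 17 were higher (15.6% of all genes). Cd83 passed with the block, and 15 of 23 were higher there at an unadjusted p under 0.05 (5.08% of all genes). Of the B7 ligands for CD28, Cd80 was at 38.3, 38.5 and 35.8 CPM in DC only and 51.4, 95 and 61.2 CPM with LPS, and Cd86 at 100.1, 94.9 and 107 CPM and 114, 174 and 117 CPM. The LPS libraries were above DC only for both, with the largest step in batch 2 (log2 0.88 ± 0.38 and 0.42 ± 0.30). Cd40, the receptor for T cell help, was at 133, 113 and 50.1 CPM and 117, 184 and 136 CPM and overlapped. Cd274 (PD-L1) was at 56.6, 58.9 and 30.5 CPM and 105, 84.6 and 36.2 CPM, higher in each batch but overlapping (log2 0.63 ± 0.58).

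Over the maturation list the median log2 ratios of batches 1 to 3 were 0.59, 0.80 and 0.54, but several genes, picked for this pattern after their values were seen, had a lower ratio in batch 3 than in the other 2. Ccr7 was at 155, 160.3 and 142 CPM in DC only and 464, 446 and 206 CPM with LPS, with within-batch log2 ratios of 1.57, 1.47 and 0.54. Fscn1, the actin bundler of mature DC dendrites, was at 78.5, 71.4 and 79 CPM and 314, 252 and 87.7 CPM (1.99, 1.81 and 0.15). Slco5a1, a transporter gene used as a mature DC marker, was at 6.01, 7.14 and 7.98 CPM and 18.5, 18.3 and 9.69 CPM (1.54, 1.30 and 0.26). Socs2, a cytokine feedback gene, went the same way at 7.01, 7.03 and 6.71 CPM and 26.6, 21.4 and 7.73 CPM (1.85, 1.54 and 0.19), and Cacnb3 had ratios of 2.14, 1.58 and -0.20. With 1 pair a batch, the difference between batches was not tested.

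Several NF-kB targets had their largest ratio in batch 3, where DC only was lowest. The ratios of Icam1, an adhesion molecule, were 0.26, 0.33 and 1.76, those of the small Maf factor Maff 0.57, 0.50 and 1.85 and those of the costimulatory ligand Tnfsf9 0.75, 0.21 and 1.87. Icam1 was at 705, 663 and 257 CPM in DC only and 843, 836 and 869 CPM with LPS, so that the LPS libraries lay close together while DC only 3 lay far below DC only 1 and 2. Socs3, an inhibitor of gp130 signalling, was at 56.1, 53.4 and 24.5 CPM and 142, 89.8 and 142 CPM (1.34, 0.74 and 2.51). Genes in this and the preceding paragraph that lie outside the naming rule (Cacnb3, Icam1, Maff and Tnfsf9) were chosen after their values were seen. Over the 10026 genes with at least 5 CPM, ratios of different batches had Pearson correlations of 0.143, 0.217 and 0.221, across genes that are not independent replicates.

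**Figure D4:**
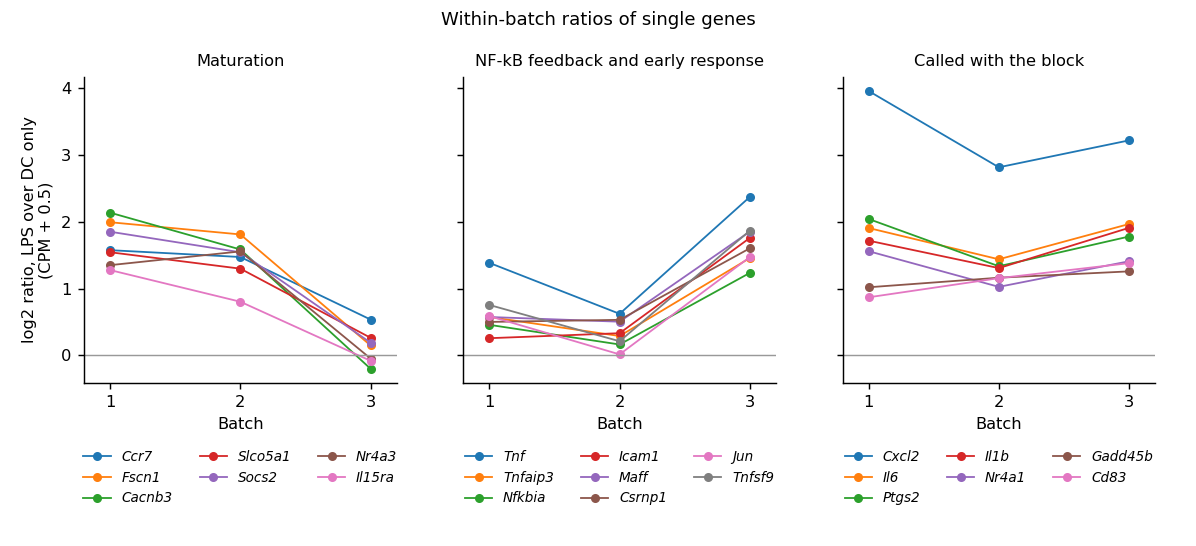
Log2 ratio of LPS over DC only within each batch, 1 line per gene, after adding 0.5 CPM; lines only join the points of a gene, and the genes were chosen after their values were seen. The 7 maturation genes are at or below 0.54 in batch 3, the 8 NF-kB and early response genes are highest there, and the 7 genes shown of the 11 called with the block are at 0.87 or more in every batch.

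The interferon arm did not follow. Of 29 tested type I interferon response genes 6 had a fitted change above 0 (median log2 -0.10), and none passed. In 0 were all LPS libraries above DC only (5.36% of all genes, so few would be in a list of this length). Of 14 interferon gamma response genes 5 were above 0 (median -0.13). The type I list's summed level varied with batch and library: 2998, 3148 and 722 CPM in DC only and 1816, 3263 and 714 CPM with LPS. LPS 1 was thus below DC only 1, LPS 2 about level with DC only 2, and both libraries of batch 3 low. Markers of plasmacytoid DCs, the cell type known for interferon production, summed to 1078, 1049 and 587 CPM in DC only and 597, 867 and 648 CPM with LPS. They were thus also lower in LPS 1 than in DC only 1 and lower in DC only 3 than in DC only 1 and 2, with 1 of 9 above 0, and their part in the interferon values was not tested. Leaving out LPS 1 put 12 of 29 type I genes above 0 (median -0.12), and leaving out DC only 2 put 22 of 29 above 0 (median 0.14).

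Ifnb1, the interferon beta gene, had 0, 0 and 0 counts in DC only and 0, 9 and 5 with LPS, too few to be tested, and a count of 0 allows up to 3 counts in a library. Ifit1 was at 5.51, 7.42 and 1.18 CPM in DC only and 5.84, 14.7 and 3.47 CPM with LPS, higher mainly in batches 2 and 3 (log2 ratios 0.08, 0.94 and 1.25). Irf7, the interferon-induced factor that amplifies interferon, was at 297, 289.97 and 37.9 CPM and 151, 317 and 37.1 CPM, and its fitted log2 change of -0.31 ± 0.91 was no larger than its error. The groups overlapped for both. The smallest p of the type I list belonged to Cmpk2, a mitochondrial nucleotide kinase, which was lower in the mean (log2 -0.45 ± 0.29), and that of the interferon gamma list to the GTPase gene Irgm2 (log2 -0.53 ± 0.45); both overlapped.

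Lipid mediator and antimicrobial genes had the highest median of the 20 pathway lists, 1.18, with 21 of 23 tested members above 0. In 14 the LPS libraries were all above DC only (5.36% of all genes). Without LPS 1 the median was 0.50, below those of cytokines (0.76), maturation genes (0.69) and chemokines (0.60). The LPS libraries left were then all above DC only for 14 (9.21% of all genes). Acod1, the enzyme that makes itaconate, was at 13.2, 10.7 and 1.71 CPM in DC only and 144, 77.8 and 62.9 CPM with LPS. DC only 3 was lowest, the groups were well apart, and the means differed 11.1-fold (log2 3.48 ± 1.35; 3.65 ± 0.50 with the block, edgeR adjusted p = 0.239). Sod2, the mitochondrial superoxide dismutase, was at 86.2, 80.5 and 63.5 CPM and 137, 83 and 92.1 CPM and overlapped. Arg2 was at 0.689, 0.286 and 0.539 CPM and 4.52, 0.831 and 0.784 CPM, high in LPS 1 (log2 2.00 ± 0.87, 0.68 without it).

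Several of the largest differences were in neutrophil granule genes and rested on LPS 1. S100a8 was at 2.07, 1.88 and 3.92 CPM in DC only and 42.6, 6.83 and 5.60 CPM with LPS, S100a9 at 3.57, 4.85 and 6.76 and 70.0, 11.3 and 10.4 CPM, and Ngp at 5.26, 5.88 and 9.16 and 68, 16 and 12.6 CPM. Lcn2, a siderophore-binding protein of neutrophils that other cells also induce, was at 1.63, 2.40 and 4.26 CPM and 24.8, 6.23 and 4.82 CPM. Without LPS 1 their log2 changes were 1.23, 1.09, 1.07 and 0.99, against 2.79 ± 1.11, 2.59 ± 1.09, 2.24 ± 0.91 and 2.10 ± 0.93 with it. The neutrophil sum was highest in that same library, and its part in these values was not tested.

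Among the other large fitted differences, none of which passed by edgeR, Mir155hg, the host transcript of miR-155, was at 6.01, 4.91 and 3.18 CPM in DC only and 14.7, 22 and 21.6 CPM with LPS (log2 2.05 ± 0.45, DESeq2 adjusted p = 0.00746). The groups did not overlap, and LPS 1 was the lowest LPS library. Plk2, a polo-like kinase induced by stress, was at 7.57, 5.77 and 3.97 CPM and 41.5, 15.1 and 12.7 CPM (log2 2.00 ± 0.58, 1.27 without LPS 1; edgeR adjusted p = 0.0591 with the block). DESeq2 also called Gem, a small GTPase gene, at 9.83, 7.60 and 5.83 and 21.3, 11.9 and 15.6 CPM (DESeq2 adjusted p = 0.0364), and Plat, tissue plasminogen activator, at 0.188, 0.0571 and 0.539 and 3.27, 1.78 and 1.68 CPM (DESeq2 adjusted p = 0.0219). Its calls of Zfp968 and of the predicted gene Gm8752 rested on libraries at 0, and reads of such genes may be split with copies. Among the DC only and LPS libraries Zfp968 was seen in DC only 3 alone, at 10.9 CPM. It was also at 9.06 CPM in SynTem 2 and at 4.66 and 6.47 CPM in AlloTem 2 and AlloTem 3. Gm8752 was at 0 in DC only and 2.76, 1.96 and 0.392 CPM with LPS.

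No cytokine feedback or survival gene passed in either fit. Of 12 tested feedback genes 10 had a fitted change above 0 (median log2 0.52), and Pim3, a survival kinase, was at 34, 26 and 30.8 CPM in DC only and 47.6, 38.5 and 41.5 CPM with LPS (log2 0.49 ± 0.15). Of 18 survival and death genes 13 were above 0 (median 0.36). In 8 the LPS libraries were all above DC only (5.36% of all genes), and in 1 all below (4.51% of all genes). The pro-survival Bcl2 relatives led them: Bcl2a1a was at 12.8, 11.8 and 19.7 CPM and 22.7, 26.3 and 36.8 CPM (log2 0.95 ± 0.26) and Bcl2a1b at 88.9, 83.6 and 46.7 CPM and 140.1, 181 and 108 CPM (log2 0.97 ± 0.55). These near-identical copies share reads, so their separate values are uncertain. Bcl2l1 (Bcl-xL) was at 23.7, 17.5 and 25.2 CPM and 28.5, 52.3 and 41.3 CPM, apart but with different steps in each batch.

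No antigen presentation gene passed in either fit. MHC class II genes had a median log2 change of 0.17 (11 of 13 above 0) and MHC class I genes of 0.01 (7 of 14 above 0). Entirely above DC only were 0 of 13 and 0 of 14 tested members (5.36% of all genes). In lists this short, 0 is near that share. The batches differed in direction for class II, with median log2 ratios of 0.14, 0.63 and -0.19 and sums of 15408, 14621 and 18428 CPM in DC only and 18340.00, 23117 and 16156 CPM with LPS. March1, the ligase that removes MHC class II and CD86 from the surface, was lower: 119.6, 126 and 138 CPM in DC only and 101, 72.8 and 101 CPM with LPS, without overlap (log2 -0.49 ± 0.22). Calr, a class I loading chaperone, was at 536, 504 and 515 CPM and 526, 612 and 527 CPM and overlapped. Irf8 and Clec9a of type 1 conventional DCs were also lower without overlap (4.51% of all genes), Irf8 at 1711, 1606 and 1669 and 1459.9, 1413 and 1352 CPM and Clec9a at 132, 141 and 146 and 86.7, 117 and 114 CPM; these 2, named after their values were seen, were the ones of the 10 listed type 1 conventional DC genes whose groups were apart. That list had 3 members above 0 and 7 below (median -0.03), and 5 above and 5 below without LPS 1. Irf4, a factor of type 2 conventional DCs, was at 111, 102 and 89 CPM and 76.2, 93.5 and 78.9 CPM, lower in each batch but overlapping (log2 -0.28 ± 0.16). Most of the listed type 2 conventional DC genes did not go with it: 6 of 9 were above 0 (median 0.09).

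Uptake and pattern recognition receptors had 19 of 26 tested members above 0 (median log2 0.32), but 10 (median -0.13) without LPS 1. Nod2, the muramyl dipeptide sensor, was at 58.2, 54.4 and 21.8 CPM in DC only and 74.8, 93.9 and 65.4 CPM with LPS, without overlap (log2 0.80 ± 0.49). Ly75 (DEC-205) was at 34.3, 33.1 and 41.9 and 45.1, 57.9 and 42.3 CPM, and Clec4a1 at 86.7, 92.1 and 90.4 and 138, 108 and 105 CPM. Of 10 tested chemokine receptors 3 were above 0 (median -0.25). Ccr2, the receptor by which monocyte-related cells follow Ccl2, was lower at 529, 597 and 476 CPM in DC only and 369, 275 and 393 CPM with LPS, without overlap (log2 -0.63 ± 0.17). Cxcr5 was at 0.814, 1.03 and 0.441 and 2.64, 2.37 and 1.68 CPM, and the atypical receptor Ccrl2 at 34.9, 31.5 and 14.3 and 78.9, 45.1 and 37.1 CPM, both higher in each batch.

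Metabolic and stress lists had medians near 0. The median log2 change was 0.03 for 24 glycolysis and hypoxia genes, -0.06 for 17 cholesterol synthesis genes and 0.06 for 14 unfolded protein response genes, and none passed. At an unadjusted p under 0.05 with the block, 4 of 14 unfolded protein, 3 of 24 glycolysis and 0 of 17 cholesterol genes were higher. The share over all genes was 5.08%. The unfolded protein list had batch medians of 0.12, 0.22 and 0.13. The glucose transporter Slc2a1 was at 37.2, 35.7 and 26 CPM in DC only and 46.2, 39.4 and 43.4 CPM with LPS (log2 0.38 ± 0.16), and Vegfa, an angiogenic growth factor, at 11.8, 10.7 and 11.6 CPM and 14.1, 25.5 and 15.3 CPM (log2 0.69 ± 0.26). The glycolytic enzyme Pgk1 was apart by a narrow gap, at 202, 202 and 210.1 CPM and 219, 211 and 214 CPM. The cholesterol enzyme Dhcr7 and the chaperone Pdia4 were nearer to 0 (log2 -0.26 ± 0.15 and -0.09 ± 0.11).

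The 5 genes with the lowest fitted changes by the rule formed a mixed set that includes Tifab. Abhd15, an adipose lipolysis regulator gene, was at 29.2, 27.7 and 34 CPM in DC only and 16, 14.9 and 16.1 CPM with LPS (log2 -0.95 ± 0.30; edgeR adjusted p = 0.0588 with the block). B3gnt8, a glycosyltransferase, was at 8.07, 8.51 and 9.60 and 4.78, 3.44 and 6.16 CPM, Erbb3, a neuregulin receptor, at 11.7, 12.9 and 12.6 and 6.60, 7.0 and 8.91 CPM, and the histamine receptor Hrh1 at 9.01, 8.45 and 7.54 and 5.09, 5.64 and 4.48 CPM. Rnase6, a secreted antimicrobial ribonuclease, had the smallest p of all genes in the fit without the block (edgeR adjusted p = 0.787). It was at 169, 173 and 158 CPM in DC only and 100.5, 115 and 125 CPM with LPS, and DESeq2 called it (log2 -0.55 ± 0.09 by edgeR, DESeq2 adjusted p = 8.69e-05).

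LPS and alloreactive memory T cells were then compared directly, to ask where 2 ways of activating the same DCs differ; this contrast does not use DC only. Of 14413 genes 65 passed (0.451%; edgeR quasi-likelihood test with Benjamini-Hochberg adjustment), 57 lower (0.395%) and 8 higher (0.0555%) with LPS than with AlloTem. With the batch as a block 136 passed, and without LPS 2 only 9 did; without LPS 3 or LPS 1 18 and 36 passed, and without AlloTem 2 33. T cell RNA in AlloTem libraries (T cell marker sums of 305, 175 and 152 CPM, against 186, 109 and 71.5 CPM with LPS) moves with this contrast, and its part was not tested.

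The genes that were lowest with LPS relative to AlloTem included cytokine-induced regulators and a chemokine. Ccl17, a CCR4 ligand, was at 0.377, 0.237 and 0.0560 CPM with LPS and 72.7, 189.99 and 66 CPM in AlloTem (log2 -8.92 ± 0.88, edgeR adjusted p = 0.00338). Cish was at 3.71, 3.80 and 1.79 CPM and 259.8, 309 and 205 CPM (log2 -6.38 ± 0.71, edgeR adjusted p = 0.00534), and Id1 at 3.39, 1.60 and 2.02 CPM and 56.9, 31.9 and 29 CPM (log2 -4.07 ± 0.53, edgeR adjusted p = 0.0107). Hbegf, a growth factor gene, was at 0.314, 0.178 and 0.336 CPM and 8.17, 21.1 and 4.25 CPM, and the mast cell and basophil protease Cpa3 at 0.628, 0.712 and 0.224 CPM and 47.3, 4.56 and 23.4 CPM (edgeR adjusted p = 0.0333 and 0.0481). Basophil and mast cell markers summed to 19.9, 12.6 and 1.46 CPM with LPS and 213, 38.6 and 50.8 CPM in AlloTem, and their part in Cpa3 was not tested. Irf4 and Socs3, with log2 differences of -2.21 ± 0.16 and -2.79 ± 0.47, passed as well (edgeR adjusted p = 0.000544 and 0.0405). With the batch as a block over the 12 libraries the calls of Cpa3 and Socs3 were lost (edgeR adjusted p = 0.0879 and 0.0613).

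Of the genes higher with LPS than with AlloTem, Sgk1, a kinase related to Akt, was at 158, 98.2 and 109 CPM with LPS and 49.9, 37.1 and 41.3 CPM in AlloTem (log2 1.51 ± 0.25, edgeR adjusted p = 0.0299). Rab7b, a late endosomal GTPase known to limit TLR4 and TLR9 signalling, was at 234, 269 and 196 CPM and 124, 103 and 136 CPM (log2 0.95 ± 0.14, edgeR adjusted p = 0.017). The other 3 by the rule were F630028O10Rik (log2 2.43 ± 0.27), Bahcc1 (log2 1.12 ± 0.18) and Gm15922 (log2 0.91 ± 0.12), with edgeR adjusted p = 0.00468, 0.0247 and 0.0107. In DC only Sgk1 and Rab7b were at 106, 108 and 102 CPM and 238, 260.5 and 265 CPM, ranges that overlapped those with LPS.

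None of the inflammatory genes given here passed in this contrast over the 12 libraries, with or without the batch as a block. The 6-library fit with the block, used above against DC only, called 746 genes in this contrast. Its values for the genes given here are not reported. Acod1 was at 144, 77.8 and 62.9 CPM with LPS, 29.4, 24.4 and 3.35 CPM in AlloTem and 13.2, 10.7 and 1.71 CPM in DC only. High Acod1 was not limited to LPS: in SynTem it was at 42.0, 2.98 and 283.6 CPM, above LPS in batch 3. Cxcl2, at the LPS and DC only levels given above, was at 18.1, 11.5 and 3.30 CPM in AlloTem. In each batch LPS was above AlloTem for both, with log2 differences of 2.31 ± 1.27 and 1.03 ± 0.68 (edgeR adjusted p = 0.943 and 1). Il6 and Il12b went the other way in the mean, at 36.6, 40.3 and 22.6 CPM and 63.9, 35.6 and 9.91 CPM in AlloTem, and Cd274 was at 506, 573 and 156 CPM there (log2 -1.18 ± 0.47, -0.87 ± 0.78 and -2.45 ± 0.60; edgeR adjusted p = 0.63, 1 and 0.15). Against DC only, which both comparisons share, the median log2 change of the cytokine list was 0.84 for LPS and 2.28 for AlloTem, and that of the interferon gamma response list -0.13 and 1.60. For NF-kB inhibitors the values were 0.39 and 0.28.

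**Figure D5:**
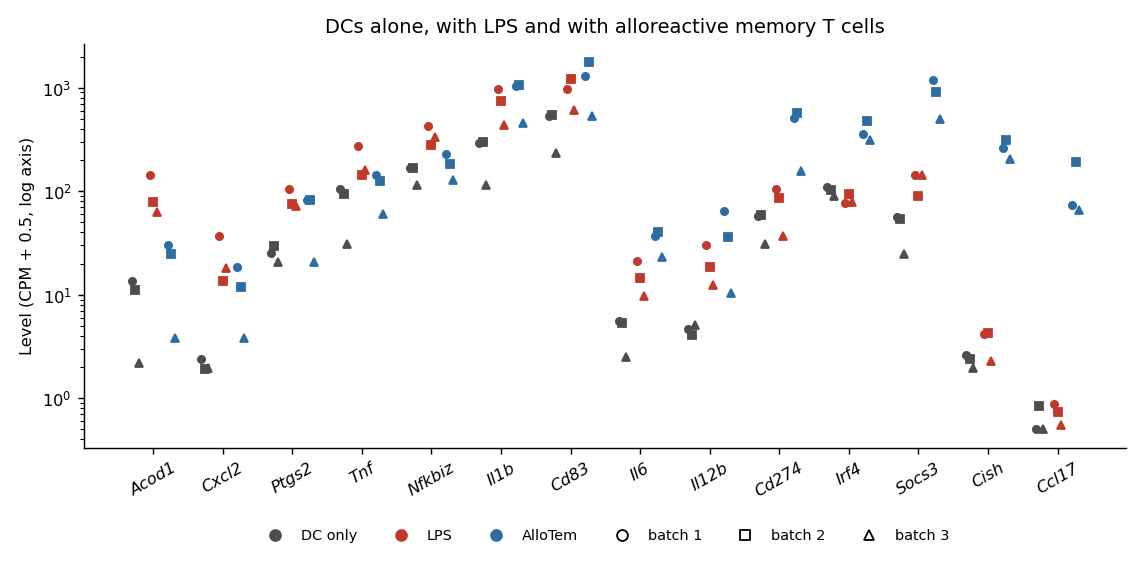
CPM after adding 0.5 (log axis) of 14 genes in DC only (grey), LPS (red) and AlloTem (blue), batch as the symbol. Of the groups shown, Acod1 and Cxcl2 are highest with LPS within each batch, and Irf4, Cish, Socs3 and Ccl17 are highest in AlloTem. For Il1b and Cd83 the LPS and AlloTem points overlap.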

How the data were processed

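RNA was sequenced as single-end reads from sorted mouse DCs, 3 libraries in each of 4 groups. The deposited table holds raw counts per gene identifier, whole numbers that were not normalized; reads were mapped to mm10 per the submitters' processing notes, and the aligner, counter, strand setting and gene annotation were not given in the sources used here. Groups came from the library titles and batch numbers from the deposited sample table. Of 57009 identifiers, 52080 matched GENCODE M21 (GRCm38), from which gene names and coordinates were taken.

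Genes were kept with filterByExpr (minimum count 10, minimum total 15), scaled by TMM and tested with robust quasi-likelihood fits over the 12 libraries, 1 mean per group, by edgeR 4.0.16 under R 4.3.3. P-values were adjusted by Benjamini-Hochberg over all tested genes and called under 0.05. The standard error is the log2 change over the square root of F. The second fit added the batch as a block, over 12 or over the 6 compared libraries. The batch pairs the libraries by the deposited table; deviations of same-batch LPS and DC only libraries correlated at 0.263, 0.0892 and 0.541 (LPS 1 with DC only 2 at 0.265 and LPS 2 with DC only 1 at 0.132, both above their own batch). Within-batch ratios were taken after adding 0.5 CPM. DESeq2 1.42.0, limma 3.58.1 (voom), other scalings and filters, and leaving out each library were alternatives. The fits were tested on simulated data, where the 6-library fit with the block made more false calls than its threshold implies.

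The comparison and its gene lists were chosen with earlier results of these data known. Named are 32 fixed genes; the 10 highest and 5 lowest fitted changes (unadjusted p under 0.05, mean of at least 5 CPM, no overlap, no predicted names); per pathway list up to 3 members apart between groups with the largest change and at least 1 CPM, or else that of smallest p; genes called by an alternative that calls 10 or fewer; and the 5 largest differences each way from AlloTem.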

Additional observations from a re-analysis of the deposited data

How the results depend on the processing

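For LPS against DC only, genes called were 0 by edgeR under RLE and upper quartile scaling, without a filter on low counts, with a mean of at least 5 CPM, with only the 6 libraries, with batches 1 and 2 only, and by limma voom. They were 10 by DESeq2 and 11 with the replicate block over only the 6 libraries, where limma voom gave 12 and DESeq2 186. In alternatives chosen after seeing the data, that blocked fit gave 27 without LPS 1 and 64 with batches 2 and 3 only. It gave 5 without DC only 2, 5 with batches 1 and 3 only and 0 with batches 1 and 2 only. The contrast without LPS 1 rests on the same pairs as batches 2 and 3. That without DC only 2 rests on the same pairs as batches 1 and 3. The cause of the different counts was not tested. Leaving out single libraries without the block gave 0 to 1, the 1 being the ribosomal pseudogene Rps12-ps3 without DC only 2 (edgeR adjusted p = 0.00366). The block over 12 libraries changed no call against DC only.

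For LPS against AlloTem, against 65 genes, DESeq2 called 286, only the 6 libraries compared 9, the replicate block 136, the replicate block over only the 6 libraries 746 and batches 1 and 2 only 9; leaving out single libraries gave 9 to 55. The cause was not tested, beyond fewer libraries where some were left out. Leaving out single libraries gave a log2 change of -0.19 to 2.20 for Ccl5, -0.24 to 0.69 for Cxcl10, -0.012 to 1.27 for Ifit1 and -1.15 to 0.16 for Irf7. The direction turned for Ccl5 without LPS 1 (log2 -0.19), Cxcl10 without DC only 3 (-0.24), Ifit1 without LPS 2 (-0.012) and Irf7 without LPS 3 (0.16), DC only 1 (0.035) or DC only 2 (0.0055), and in the blocked 6-library fit without LPS 1 (0.062) or with batches 2 and 3 only (0.058). Values of Il10, Cxcl1 and Ifnb1 rest on few reads.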
